A study of Mus musculus with 12 samples.

Results

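The comparison described here is the diet by DSS interaction in mouse liver, that is, the difference between the change with dextran sulfate sodium (DSS) on a high-fat diet and the change with DSS on the other diet. It was defined as (HFD_DSS minus HFD) minus (CD_DSS minus CD) on log2(FPKM + 1), where FPKM is fragments per kilobase of transcript and per M fragments. It used 12 of the 12 libraries of the series, in 4 groups of 3. All 4 groups came from the liver of wild-type (WT) mice of the inbred strain C57BL/6J. The CD group received a diet that the labels name CD and do not spell out, the HFD group a high-fat diet, and the CD_DSS and HFD_DSS groups the same diets with 2% DSS. The sources used here do not give age, sex, diet composition or the route and duration of DSS. They do not say either that the libraries of a group stem from different animals, and p-values therefore reflect only the spread of these samples, which may be technical. A positive interaction means that the level moved further up, or less far down, with DSS on the high-fat diet than on CD.

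DSS is a sulfated polysaccharide that damages the lining of the colon and serves as a model of colitis. The liver receives blood from the gut through the portal vein and answers intestinal and systemic inflammation with an acute phase response. It is also the main site of cholesterol and bile acid synthesis. The transcription factor SREBP2 induces the cholesterol synthesis enzymes when sterols in the endoplasmic reticulum are low, and bile acid synthesis from cholesterol starts with CYP7A1.

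Recovered depth was 23.4 to 29.4 M fragments per library, and 10806 of 54532 gene IDs passed the filter of at least 1 FPKM in at least 3 libraries. The liver label was checked with the levels of its markers. The lowest value of the 10 hepatocyte markers in any library was 135 FPKM, and albumin (Alb) was at 16130 to 37498 FPKM. All 15 lymphocyte markers were also above 0 in every library, but their highest value was 5.98 FPKM. On the first principal component, which held 43.3% of the variance, 3 libraries stood apart from their groups: HFD 1 at −2.90, CD_DSS 1 at −4.75 and HFD_DSS 2 at 7.64. The other libraries without DSS lay between −21.7 and −19.1, and the other libraries with DSS between 21.7 and 30.9. The acute phase gene Saa1 shows the same libraries apart, with 15, 49.2 and 32.8 FPKM in CD, 9.14, 595 and 483 in CD_DSS, 579, 19.9 and 22.4 in HFD, and 1104, 191 and 2670.4 in HFD_DSS. Summed FPKM of 18 macrophage and Kupffer cell markers was 340.1 to 418 in CD, 395 to 674 in CD_DSS, 329.6 to 523 in HFD and 446 to 641 in HFD_DSS. In such bulk tissue, fewer cells of a type and less RNA per cell cannot be told apart.

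After adjustment over all genes, 1 of 10806 genes had a diet by DSS interaction (0.00925%; limma, Benjamini-Hochberg adjusted p under 0.05), with a positive sign, and 0 had a negative one. At an unadjusted p under 0.05 there were 533 genes (4.93%), of which 252 were positive (2.33%) and 281 negative (2.6%). A table without any interaction would pass 5% of its genes at that threshold. The median interaction over all genes was −0.01, and 47.8% of genes were above 0. The interaction had a median standard error of 0.17 on the log2 scale, against 0.12 for the DSS effect on CD, and the median half-width of its 95% interval was 0.38. For 9579 genes (88.6%) the interval lay within −1 and 1 on the scale of log2(FPKM + 1). That scale understates changes of low genes, so for these a difference larger than 2-fold in FPKM can lie within it.

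DSS itself changed 519 genes on CD (4.8%; 217 higher, 2.01%, and 302 lower, 2.79%) and 522 genes on HFD (4.83%; 187 higher, 1.73%, and 335 lower, 3.1%). The majority direction turned with the scaling: higher calls made up 41.8% on CD and 35.8% on HFD, but 61.2% and 67.6% on the TPM scale (transcripts per M). On that scale 13268 genes passed the filter, so the set of genes tested changed as well. Of the genes called, 331 passed on CD alone and 334 on HFD alone. Among those 665 genes, 1 had a called interaction and 179 an unadjusted p under 0.05, so a call on a single diet was for 664 of them not a called difference between diets. Another 188 genes passed on both diets, all with the same sign, and 149 of these (79.3%) had an interaction interval within −1 and 1. Of the genes called on CD, 95.6% had the same sign on HFD, and of the genes called on HFD, 96.2% had the same sign on CD. Over all tested genes the share was 73.3%. Across genes, which are not independent replicates, the 2 DSS effects had a Pearson correlation of 0.72. These effects share no libraries.

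**Figure D1:**
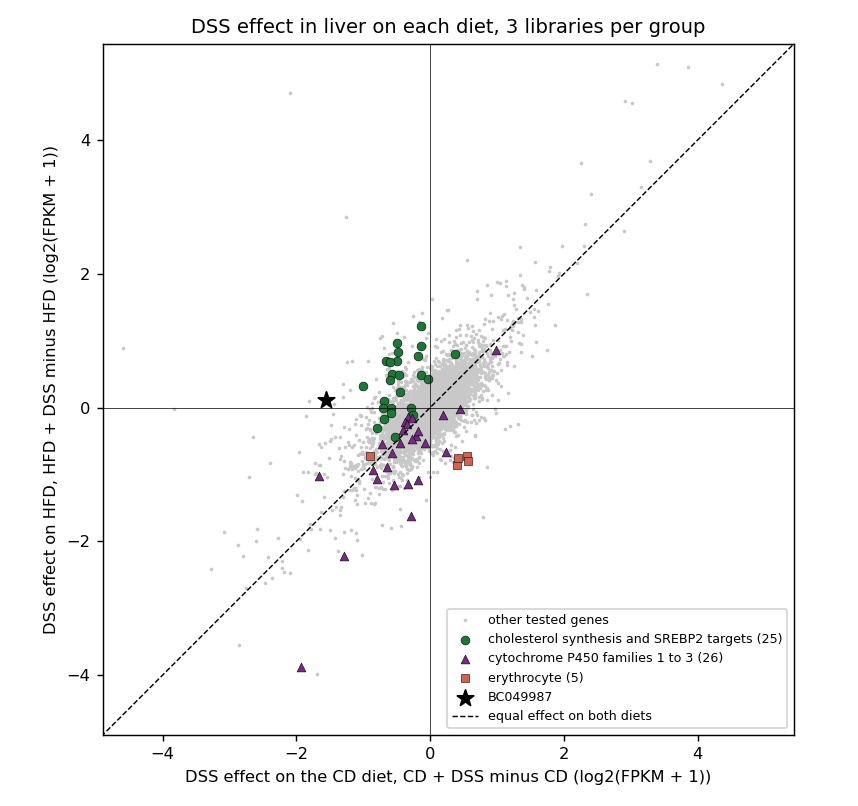
DSS effect on CD (x axis) against DSS effect on HFD (y axis) for the 10806 tested genes, both as differences of log2(FPKM + 1) between group means of 3 libraries. Points above the dashed line have a positive interaction. Most genes follow the line, the 25 cholesterol genes lie above it, and BC049987 lies at −1.55 on CD and 0.11 on HFD.

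The called gene was BC049987 (ENSMUSG00000110755), annotated as a long intergenic non-coding RNA on chromosome 9 from 44670453 to 44672238 on the minus strand in mm10. Its symbol falls outside the rule by which genes were named, so it was chosen after its values were seen. Its levels were 6.65, 8.13 and 6.94 FPKM in CD, 1.59, 2.23 and 1.64 in CD_DSS, 7.51, 7.92 and 6.21 in HFD, and 8.85, 8.44 and 6.48 in HFD_DSS. The 3 CD_DSS libraries were the lowest of the 12, and the other 3 groups overlapped one another. DSS lowered it on CD (−1.55 log2; limma adjusted p = 0.00137), and its DSS effect on HFD was 0.11 (adjusted p = 0.645). The interaction was 1.66 ± 0.19 log2 (SE; 95% interval 1.25 to 2.08; limma adjusted p = 0.0227). The call ended without the 3 libraries that stood apart (1.59, adjusted p = 0.0759), and also without CD 1, CD 2, HFD 2, HFD 3, CD_DSS 1, CD_DSS 3, HFD_DSS 1 or HFD_DSS 2, where the estimate stayed between 1.57 and 1.73 and adjusted p was 0.0584 to 0.122. The gene starts 995 bp from Treh, which encodes the brush-border enzyme trehalase and lies on the opposite strand. Treh was at 0.347 to 1.86 FPKM, with an interaction of 0.49 and an unadjusted p of 0.126. The RefSeq promoter window of BC049987 (250 bases before to 50 after the start, GRCm38.p6) is shown because this is the gene that passed, with CCAAT or its reverse complement ATTGG in capitals.
BC049987, chr9:44672211-44672510, minus strand: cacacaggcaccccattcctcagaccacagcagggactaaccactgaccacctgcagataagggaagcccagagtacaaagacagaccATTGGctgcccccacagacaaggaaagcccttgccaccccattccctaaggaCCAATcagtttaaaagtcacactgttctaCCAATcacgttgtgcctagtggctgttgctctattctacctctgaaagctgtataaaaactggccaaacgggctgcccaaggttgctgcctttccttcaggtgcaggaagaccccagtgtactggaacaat

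**Figure D2:**
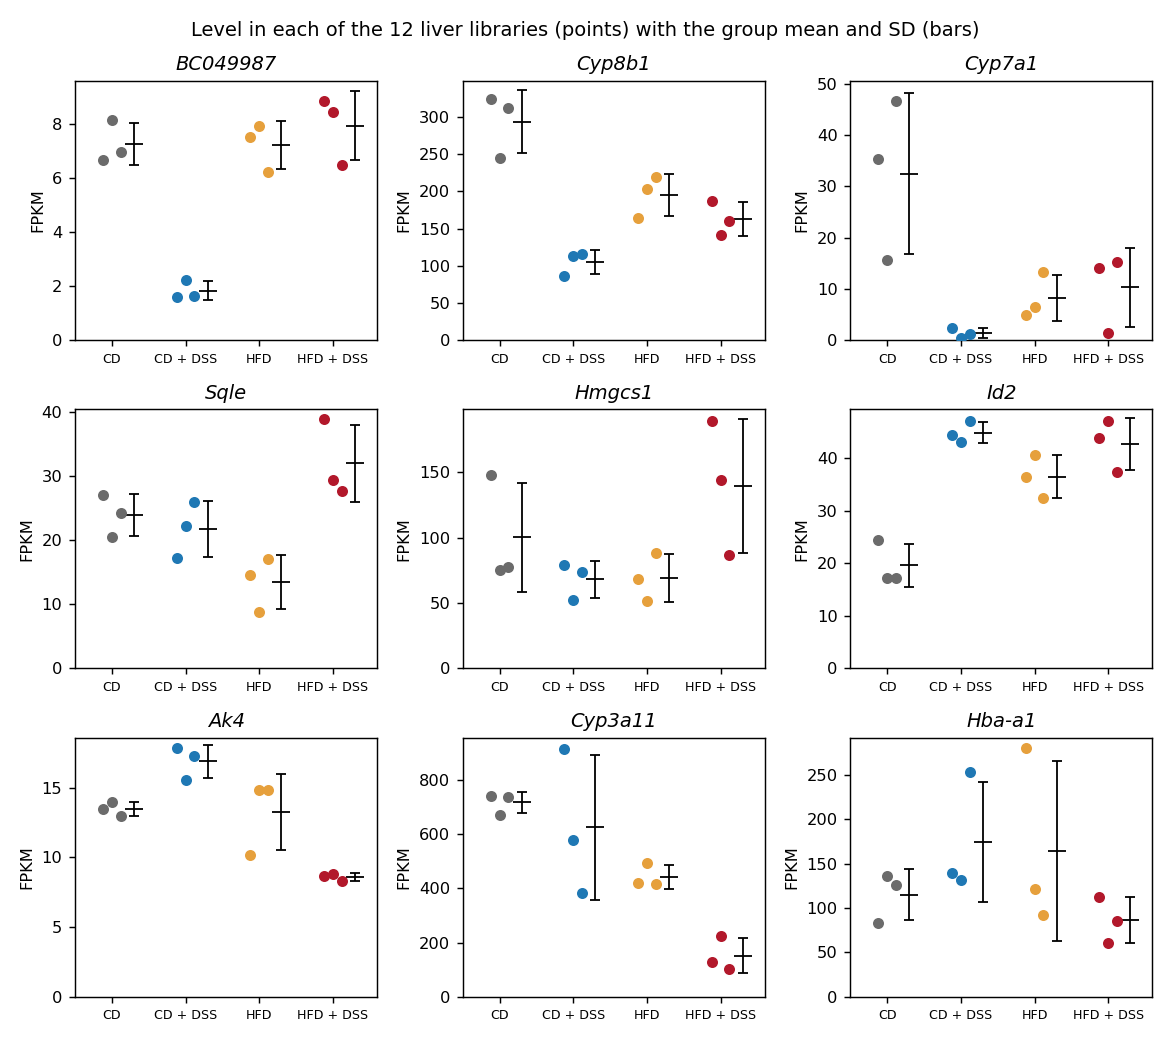
FPKM of 9 genes in each of the 12 libraries (points, by group on the x axis), with the group mean and SD of 3 libraries (bars). BC049987 and Cyp8b1 are lowest in CD_DSS, Sqle is high in HFD_DSS, and Ak4 and Cyp3a11 are low in HFD_DSS.

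Among 42 gene lists with at least 5 tested members, the cholesterol synthesis and SREBP2 target list had the highest median interaction. All 25 members were tested and all 25 had a positive interaction, from 0.09 (Tm7sf2, a sterol reductase) to 1.47 (Hmgcs1, HMG-CoA synthase), with a median of 0.80 against −0.01 over all genes. At an unadjusted p under 0.05 there were 18 positive members (72%, against 2.33% of all genes) and 0 negative ones. None passed adjustment over all genes. The members were measured in the same 12 libraries and move together between them, so the count is not one of independent observations. On CD the median DSS effect of the list was −0.50, and 24 of 25 group means were lower with DSS. On HFD it was 0.43, and 18 of 25 were higher with DSS. The 2 DSS effects had opposite signs for 17 members. Without DSS, all 25 means were lower on HFD than on CD (median −0.49). With DSS, 21 were higher on HFD (median 0.38).

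The early steps of the pathway lead from acetyl-CoA to mevalonate. Hmgcs1, which makes HMG-CoA, was at 148, 75 and 77.2 FPKM in CD, 79.1, 51.9 and 73.3 in CD_DSS, 68.1, 51.2 and 88 in HFD, and 189, 144 and 86.6 in HFD_DSS, with group means of 100.03 ± 41.5 FPKM in CD, 68.1 ± 14.3 in CD_DSS, 69.1 ± 18.5 in HFD and 139.7 ± 51.2 in HFD_DSS (SD, n = 3). Its CD_DSS libraries lay below those of HFD_DSS, and the other pairs of groups overlapped. Neither DSS effect was called (−0.50 log2 on CD, limma adjusted p = 0.398; 0.97 on HFD, adjusted p = 0.109), and the interaction was 1.47 (95% interval 0.44 to 2.49; adjusted p = 0.901). Mevalonate kinase (Mvk) and mevalonate diphosphate decarboxylase (Mvd), which act next, had interactions of 1.02 and 1.28, and the isopentenyl isomerase Idi1 one of 1.32.

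Farnesyl diphosphate synthase and the squalene enzymes follow. Sqle, squalene epoxidase and a control point of the pathway, was at 27, 20.6 and 24.2 FPKM in CD, 17.2, 22.3 and 26 in CD_DSS, 14.5, 8.79 and 17 in HFD, and 38.9, 29.5 and 27.8 in HFD_DSS. The HFD libraries were the lowest and the HFD_DSS libraries the highest of the 12, while CD and CD_DSS overlapped. DSS raised Sqle on HFD by 1.23 log2 (limma adjusted p = 0.0192), its effect on CD was −0.14 (adjusted p = 0.767), and the interaction was 1.36 (95% interval 0.67 to 2.06; adjusted p = 0.687). Fdft1, squalene synthase, had an interaction of 1.19 (0.52 to 1.87), and Lss, lanosterol synthase, one of 1.07 (0.42 to 1.72). Fdps, farnesyl diphosphate synthase, rose on HFD by 0.92 log2 (limma adjusted p = 0.0121), with 2.47, 1.69 and 1.56 FPKM in CD, 1.83, 1.32 and 1.71 in CD_DSS, 1.04, 0.637 and 0.939 in HFD, and 3.12, 2.22 and 2.29 in HFD_DSS. The HFD libraries were the lowest and those of HFD_DSS overlapped CD. It had an interaction of 1.06 (adjusted p = 0.491). Its values are uncertain: the processed pseudogene Gm3571, 98.9% identical to Fdps over its whole length, was higher than Fdps in all 12 libraries, and 26.7% of the exon bases of Fdps also belong to Gm43738. Gm3571, named after its values were seen, had an interaction of 1.62 (adjusted p = 0.61). Of the exon bases of Fdft1, 18.3% lie opposite to Ctsb, and the sources used here do not say whether counting used the strand.

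Of the later sterol steps, Msmo1 (sterol C4-methyl oxidase) had an interaction of 1.35, Cyp51 (lanosterol demethylase) 0.95 and Dhcr7 (the last reductase) 0.80. DSS lowered 4 members on CD, among them Dhcr7 (−0.69), the SREBP regulator Insig1 (−0.70) and the sterol carrier Stard4 (−0.59), a share of 4 in 25 against 2.79% of all genes. It raised 3 on HFD, Fdps and Sqle among them, against 1.73% of all genes. The regulators had smaller estimates than these enzymes: Srebf2, which encodes SREBP2, had an interaction of 0.46 (0.04 to 0.88), and Insig1 one of 0.52 (0.03 to 1.01).

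**Figure D3:**
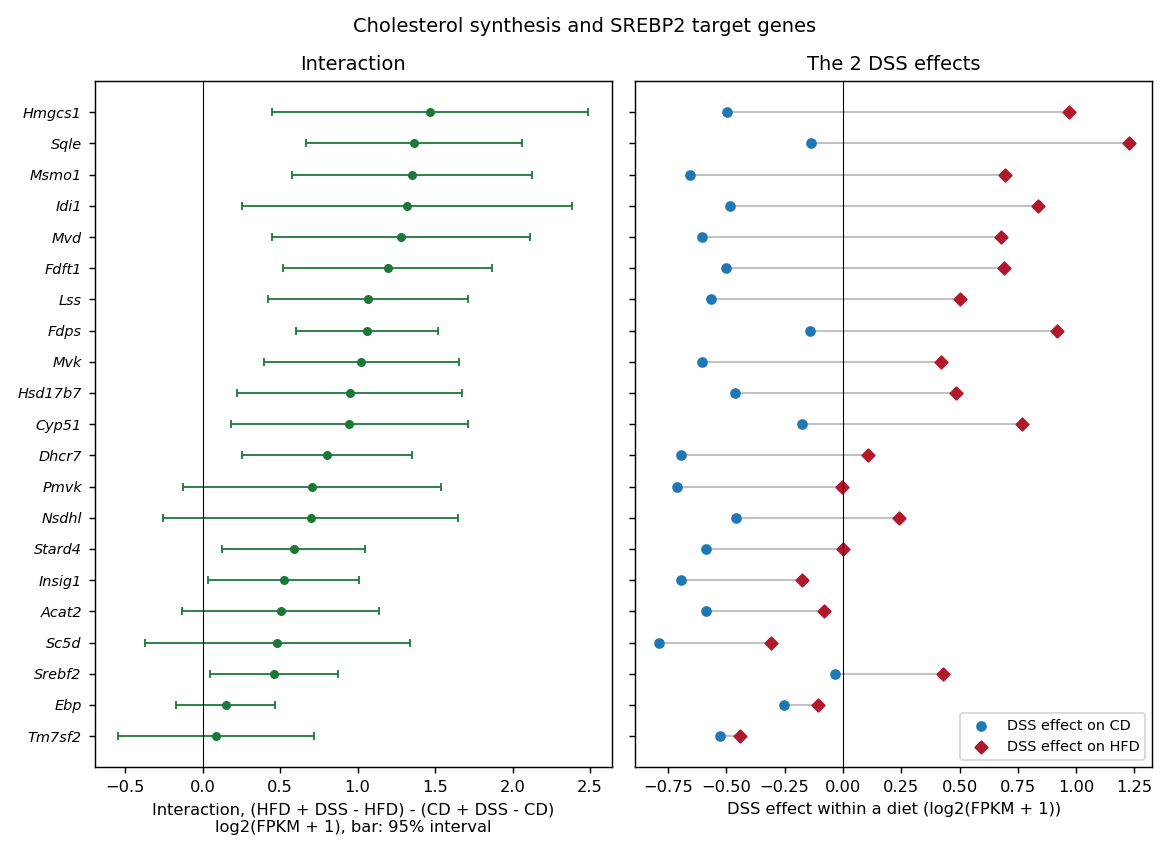
Interaction with its 95% interval (left) and the DSS effects on CD and on HFD (right) for 21 of the 25 members of the cholesterol list, in differences of log2(FPKM + 1). All 21 interactions drawn are above 0, and 15 of these members have DSS effects of opposite sign.

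Leaving out 1 library at a time kept 24 or 25 members positive, with a median of 0.64 (without HFD_DSS 2) to 1.04 (without HFD_DSS 3) and 12 (without CD 1) to 21 (without HFD_DSS 3) positive members at an unadjusted p under 0.05. Without the 3 libraries that stood apart, 24 of 25 were positive, the median was 0.79 and 14 passed that threshold. That fit put 11.5% of all genes under the threshold, in either direction.

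The promoters of 17 of the 25 genes were matched by symbol in the RefSeq table (GRCm38.p6), and Sqle, Fdft1 and Fdps were not among them. A gene was counted if any of its windows of 300 bases held the motif on either strand. CCAAT, the box bound by NF-Y, a known partner of SREBP2, was found for 16 of the 17 genes (94.1%). The share was 42.9% of the 7984 matched tested genes and, counted by window, 37.4% of 32851 promoters. TCACNCCA, part of the sterol regulatory element, was found for 3 of 17 (17.6%), against 4.58% of tested genes and 4.36% of all promoters. The list was chosen as cholesterol enzymes and SREBP2 targets, so these shares describe its membership and not the interaction. The final letters of TCACNCCA can be the first letters of CCAAT, but no such overlap occurs in the windows printed. A match describes these letters and is not a measured binding site. Since the members move together, the 3 windows that hold both motifs are printed, with both motifs in capitals, read on either strand.
Hmgcs1, chr13:119690101-119690400, plus strand: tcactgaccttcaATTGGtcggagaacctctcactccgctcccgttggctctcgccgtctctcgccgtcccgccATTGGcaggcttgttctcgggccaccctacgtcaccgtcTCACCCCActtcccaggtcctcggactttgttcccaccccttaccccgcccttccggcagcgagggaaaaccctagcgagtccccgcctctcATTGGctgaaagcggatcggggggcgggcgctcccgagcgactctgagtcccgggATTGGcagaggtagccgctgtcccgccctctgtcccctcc
Msmo1, chr8:64733529-64733828, minus strand: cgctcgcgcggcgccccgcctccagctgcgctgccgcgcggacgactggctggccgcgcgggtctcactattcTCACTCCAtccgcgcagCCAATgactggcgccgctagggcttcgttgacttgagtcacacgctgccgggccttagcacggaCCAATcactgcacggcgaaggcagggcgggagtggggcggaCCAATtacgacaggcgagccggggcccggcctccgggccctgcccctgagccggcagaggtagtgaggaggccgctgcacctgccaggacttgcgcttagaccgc
Srebf2, chr15:82147019-82147318, plus strand: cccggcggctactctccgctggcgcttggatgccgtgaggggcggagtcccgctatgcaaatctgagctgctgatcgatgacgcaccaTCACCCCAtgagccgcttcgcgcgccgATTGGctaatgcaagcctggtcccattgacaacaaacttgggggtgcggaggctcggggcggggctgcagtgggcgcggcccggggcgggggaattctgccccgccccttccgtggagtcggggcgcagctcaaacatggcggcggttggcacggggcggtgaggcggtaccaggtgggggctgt

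Bile acid synthesis uses cholesterol as its substrate. Cyp8b1, the sterol 12α-hydroxylase that sets the share of cholic acid, had the lowest p among the genes of the naming rule. Its levels were 324, 245 and 312 FPKM in CD, 86.2, 113 and 116 in CD_DSS, 164, 203 and 219 in HFD, and 187, 141 and 159.9 in HFD_DSS. The CD_DSS libraries were the lowest of the 12 and the CD libraries the highest, while HFD and HFD_DSS overlapped. DSS lowered Cyp8b1 on CD (−1.48 log2; limma adjusted p = 0.003), the effect on HFD was −0.26 (adjusted p = 0.364), and the interaction was 1.21 (95% interval 0.69 to 1.73), which did not pass (adjusted p = 0.491). Cyp7a1, the rate-limiting 7α-hydroxylase, was at 35.3, 15.6 and 46.6 FPKM in CD, 2.37, 0.379 and 1.15 in CD_DSS, 4.92, 6.41 and 13.3 in HFD, and 14.1, 1.44 and 15.3 in HFD_DSS. Each CD library lay above each library of the other groups, and HFD_DSS 2 lay apart from HFD_DSS 1 and 3. DSS lowered it on CD (−3.83 log2; limma adjusted p = 0.0159), the effect on HFD was −0.02, and the interaction was 3.81 (1.69 to 5.92; adjusted p = 0.699). Of 13 tested synthesis genes, these 2 had an unadjusted p under 0.05 with a positive sign, against 2.33% of all genes, 7 were positive and the median interaction was 0.12. That median was −0.04 without CD_DSS 2. DSS lowered 4 of the 13 on CD and 1 on HFD, against 2.79% and 3.1% of all genes. Of 13 bile acid transporters and FXR targets, 0 had an unadjusted p under 0.05, against 4.93% of all genes, with a median of 0.07.

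The cytochrome P450 families 1 to 3 oxidise drugs and other foreign compounds. Of 26 tested members, 7 had a positive interaction, 6 a negative one at an unadjusted p under 0.05 (23.1%, against 2.6% of all genes), and the median was −0.21. None passed adjustment. DSS lowered 4 members on CD and 9 on HFD, against 2.79% and 3.1% of all genes. Cyp3a11, a main drug-metabolising enzyme of mouse liver, was at 742, 671 and 737 FPKM in CD, 913, 578 and 383 in CD_DSS, 419, 492 and 415 in HFD, and 129, 224 and 101 in HFD_DSS. Each HFD_DSS library was below each library of the other groups, and the CD_DSS libraries spread on both sides of CD. DSS lowered it on HFD (−1.62 log2; limma adjusted p = 0.0228), its effect on CD was −0.29 (adjusted p = 0.626), and the interaction was −1.33 (−2.29 to −0.37; adjusted p = 0.958). Cyp2a5, coumarin 7-hydroxylase, fell on CD (−1.94 log2; limma adjusted p = 0.034) and on HFD (−3.88; adjusted p = 0.00263), with 98.2, 77.8 and 93.3 FPKM in CD, 55.9, 13.1 and 15.4 in CD_DSS, 40.1, 53 and 38.2 in HFD, and 1.25, 3.38 and 1.78 in HFD_DSS. Its interaction was −1.94 (−3.29 to −0.60; adjusted p = 0.897), and its transcript is 98.2% identical to that of Cyp2a4. Cyp2c37 had an interaction of −0.90 and shares 96.0% of its sequence with Cyp2c50. Leaving out 1 library at a time gave 2 (without HFD 2) to 8 (without HFD 1) negative members at that threshold and a median of −0.30 to −0.14.

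**Figure D4:**
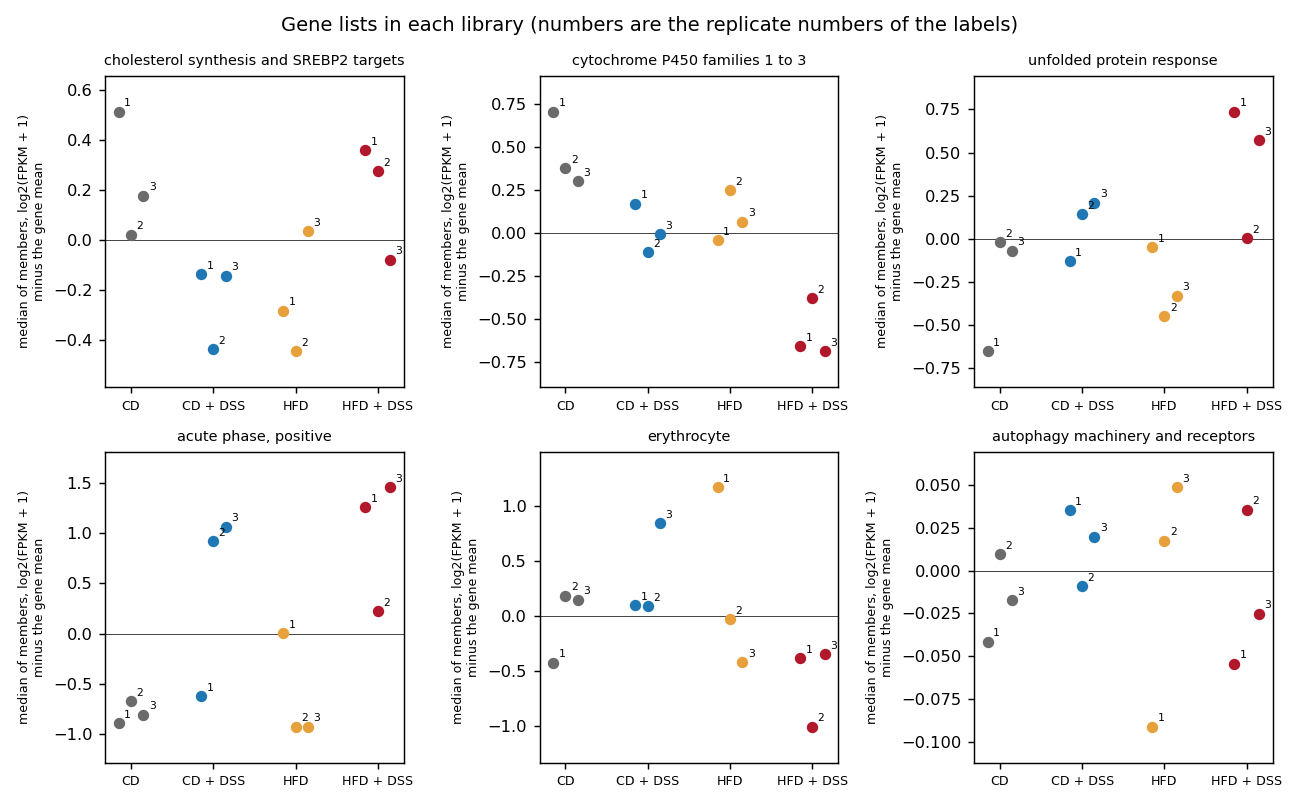
Median over the tested members of 6 gene lists in each library, as log2(FPKM + 1) minus the mean of the gene over the 12 libraries, with groups on the x axis. The cholesterol medians of the 3 CD_DSS libraries lie below those of CD, P450 genes are lowest in HFD_DSS, and the acute phase medians of HFD 1, CD_DSS 1 and HFD_DSS 2 lie away from their groups.

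The positive acute phase list, secreted proteins and signal components induced by interleukin-6, had a median DSS effect of 1.26 on CD, with 3 of 31 tested members called higher, and of 1.54 on HFD, with 10 called higher, against 2.01% and 1.73% of all genes. Its median interaction was 0.31, with 26 positive members. At an unadjusted p under 0.05 there was 1 (3.23%, against 2.33% of all genes), Il6ra, the interleukin-6 receptor (0.57). The direction of the median rested on 1 library: it was −0.23 without CD_DSS 1. Leaving out any other library kept the median above 0, up to 0.70 without CD_DSS 3. Without the 3 libraries that stood apart, the median was 0.49 and 11 members were positive at that threshold. That fit put 11.5% of all genes under the threshold, in either direction. The intervals of the strongest members of the list were wide, at −3.71 to 6.52 for Saa1 and −2.80 to 6.30 for Lcn2, a siderophore-binding protein.

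The unfolded protein response list holds chaperones and folding enzymes of the endoplasmic reticulum. Its median DSS effect was 0.39 on CD and 0.79 on HFD. Of 23 tested members, 22 had a positive interaction, with a median of 0.40, and 2 had an unadjusted p under 0.05 (8.70%, against 2.33% of all genes). On CD, 0 were called, and on HFD 4 rose, namely Canx, Dnajc3, Hsp90b1 (1.16) and Pdia4 (1.19), against 2.01% and 1.73% of all genes called higher. Canx, the chaperone calnexin, was at 86.7, 98.2 and 94.3 FPKM in CD, 93.9, 87.3 and 93.6 in CD_DSS, 86.2, 76.4 and 79.9 in HFD, and 107, 98 and 106 in HFD_DSS. The HFD_DSS libraries were above those of HFD without overlap, and the CD groups overlapped. Its interaction was 0.38 (0.11 to 0.65; adjusted p = 0.958). Dnajc3, a co-chaperone, had an interaction of 0.54 (0.02 to 1.06). The number of positive members at an unadjusted p under 0.05 ranged from 1 to 10 when 1 library was left out. It was 9 without the 3 libraries that stood apart and 7 on the TPM scale. Of all genes, 11.5% were under that threshold in either direction without the 3 libraries and 3.98% on the TPM scale.

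Of 15 tested ATF4 targets, the genes of the amino acid and integrated stress response, 10 were positive with a median of 0.03. Asns, asparagine synthetase, was at 2, 1.15 and 1.58 FPKM in CD, 1.27, 1.29 and 1.51 in CD_DSS, 2.41, 0.573 and 0.73 in HFD, and 7.05, 3.45 and 3.98 in HFD_DSS. The HFD_DSS libraries were the highest of the 12. DSS raised Asns on HFD by 1.42 log2 (limma adjusted p = 0.026), its effect on CD was −0.11 (adjusted p = 0.855), and the interaction was 1.54 (0.66 to 2.42; adjusted p = 0.699).

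Of 19 tested glucocorticoid receptor targets, 16 had a positive interaction, the median was 0.48, and 4 had an unadjusted p under 0.05 (21.1%, against 2.33% of all genes). The list overlaps the positive acute phase list: Mt2 is in both, and its interaction of 0.48 (SE 1.73) is the list median. DSS effects were below 0 for 11 of the 19 on CD and for 9 on HFD, with medians of −0.13 and 0.14. On CD 3 were called higher and 2 lower, against 2.01% and 2.79% of all genes. On HFD 4 were called higher and 0 lower, against 1.73% and 3.1% of all genes. Fkbp5, a co-chaperone of the receptor, rose on both diets, by 0.99 log2 on CD (limma adjusted p = 0.0477) and 1.87 on HFD (adjusted p = 0.00974), with 3.76, 5.17 and 4.22 FPKM in CD, 5.82, 12 and 12.7 in CD_DSS, 2.26, 1.59 and 1.63 in HFD, and 12.4, 7.7 and 8.36 in HFD_DSS. The DSS libraries lay above those without DSS on each diet, and the HFD libraries were the lowest of the 12. Its interaction was 0.88 (0.10 to 1.65; adjusted p = 1). Zbtb16, a glucocorticoid-induced regulator of transcription, rose by 1.57 on CD (adjusted p = 0.00258) and 2.18 on HFD (adjusted p = 0.000239), with an interaction of 0.62 (0.13 to 1.11). Its 6 DSS libraries, at 9.16 to 12.1 FPKM, overlapped between diets, while the HFD libraries, at 1.32 to 1.91, lay below the CD libraries, at 2.49 to 4.13. Angptl4, an inhibitor of lipoprotein lipase, had an interaction of 0.99, with DSS effects of −0.84 and 0.14 that were not called. Without the 3 libraries that stood apart, 9 members passed the unadjusted threshold with a positive sign, and leaving out 1 library gave 1 to 6. The fit without the 3 libraries put 11.5% of all genes under that threshold, in either direction.

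The globin genes had the most negative median of the 42 lists. Of 5 tested erythrocyte genes, 4 globins had interactions of −1.36 to −1.17 with an unadjusted p under 0.05 (80%, against 2.6% of all genes). Alas2, the erythroid enzyme of heme synthesis, had an interaction of 0.19. Hba-a1, an alpha globin, was at 83, 136 and 126 FPKM in CD, 139, 131 and 253 in CD_DSS, 281, 121 and 91.8 in HFD, and 112, 60.9 and 85.4 in HFD_DSS. The CD_DSS libraries lay above the HFD_DSS libraries, the other pairs of groups overlapped, and the highest values were in 2 single libraries, HFD 1 and CD_DSS 3. The interaction of Hba-a1 was −1.36 (−2.60 to −0.12; adjusted p = 1), and neither DSS effect was called. The 4 globins at that threshold became 1 without HFD 1 or without the 3 libraries that stood apart, and 0 without CD 1, CD_DSS 3 or HFD_DSS 2. With the 3 libraries left out, 11.5% of all genes were under that threshold, in either direction. Summed FPKM of the 7 erythrocyte markers in the table was 242 to 372 in CD, 326 to 589.5 in CD_DSS, 263 to 702 in HFD and 173 to 272 in HFD_DSS, with Slc4a1, the band 3 protein, at 0 in 1 library. The amount of blood in the samples was not tested. Hba-a1 and Hba-a2 are 99.8% identical, as are parts of the beta globins, so reads may be split between them.

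Lipid synthesis outside the sterol branch was covered by 22 tested genes of fatty acid and triglyceride synthesis. DSS effects were below 0 for 21 of these on each diet, with medians of −0.63 on CD and −0.62 on HFD. DSS lowered 5 on CD and 3 on HFD, against 2.79% and 3.1% of all genes. The interaction had no common direction: 14 were positive, the median was 0.10 and 1 had an unadjusted p under 0.05 (4.55%, against 2.33% of all genes). That gene was Lpin1, a phosphatidate phosphatase and transcriptional coactivator, at 33.4, 35.3 and 36 FPKM in CD, 25.3, 11.7 and 11.2 in CD_DSS, 11.9, 4.33 and 15.6 in HFD, and 14.6, 18.6 and 14.8 in HFD_DSS. The CD libraries were the highest of the 12. The interaction of Lpin1 was 1.87 (0.70 to 3.04; adjusted p = 0.747), with DSS effects of −1.17 on CD and 0.70 on HFD, neither of them called. Thrsp, a regulator of lipogenesis, fell on CD (−2.87 log2; limma adjusted p = 0.00272) and on HFD (−2.05; adjusted p = 0.011), with an interaction of 0.82 (−0.12 to 1.76). Scd1, stearoyl-CoA desaturase, fell on HFD (−3.99 log2; limma adjusted p = 0.0326), its effect on CD was −1.69 (adjusted p = 0.274), and the interval of its interaction, −5.03 to 0.44, held 0. Fasn and Srebf1, fatty acid synthase and the gene of SREBP1, had interactions of 0.44 (−0.60 to 1.48) and −0.36 (−1.24 to 0.53). Of 30 tested genes of fatty acid oxidation and ketogenesis, 3 were positive, with a median of −0.15. At an unadjusted p under 0.05 there were 0, against 4.93% of all genes. Leaving out 1 library gave 0 (without CD_DSS 3) to 11 (without CD_DSS 1) positive members, a median of −0.26 to −0.04 and up to 4 negative members at that threshold (without HFD_DSS 2). Without the 3 libraries that stood apart, 8 were negative at that threshold. That fit put 11.5% of all genes under the threshold, in either direction.

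**Figure D5:**
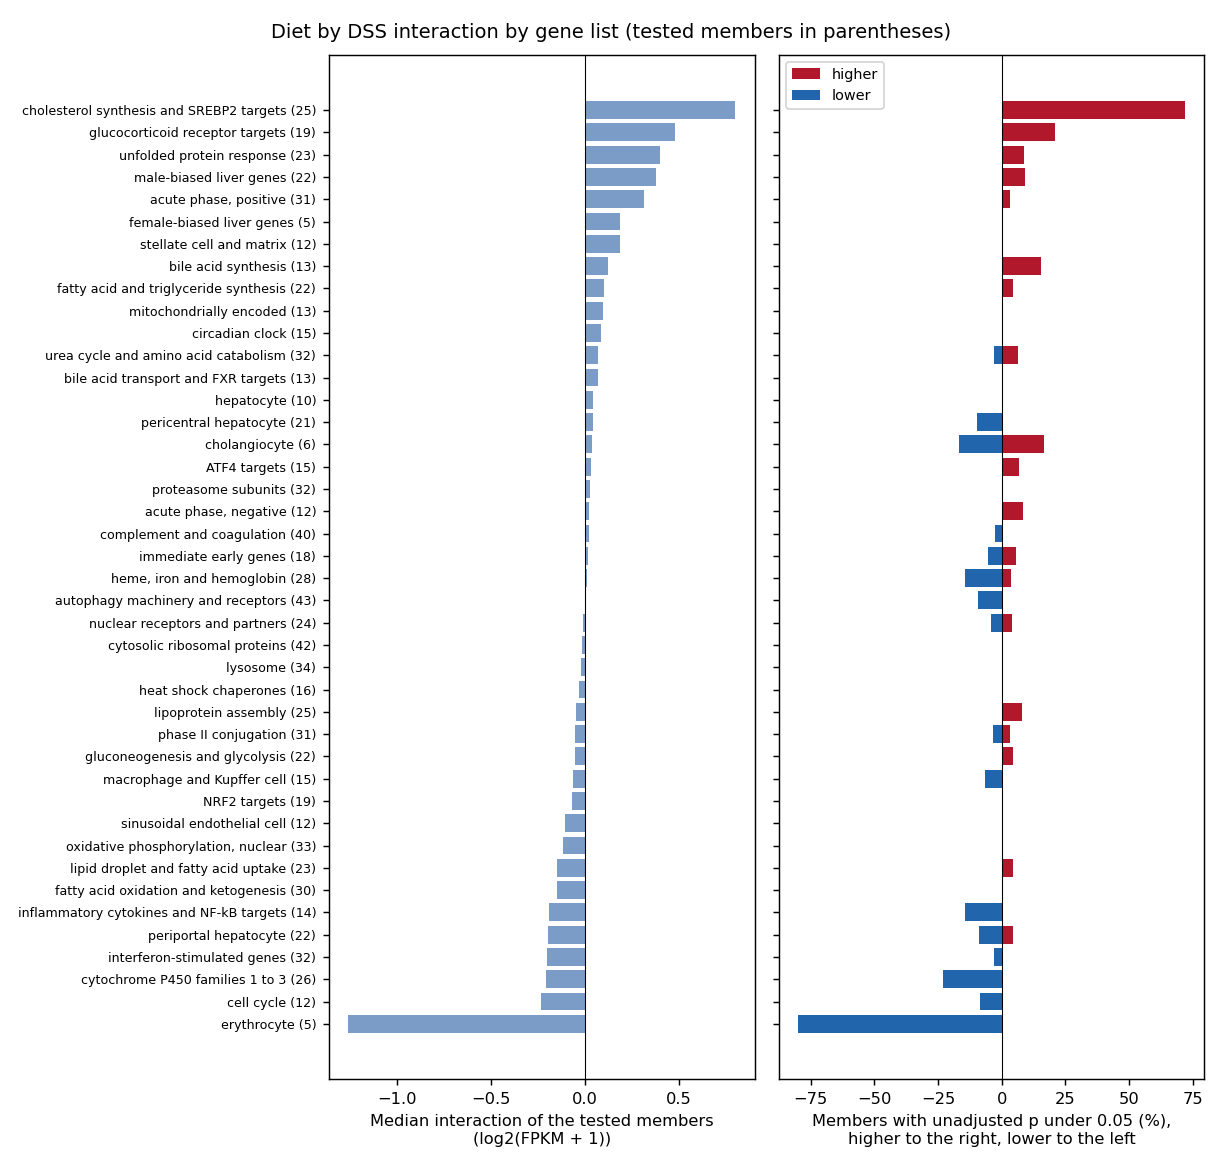
Median interaction of the tested members (left, log2(FPKM + 1)) and percentage of members with an unadjusted p under 0.05 (right, positive to the right and negative to the left) for 42 gene lists. The cholesterol list is at 0.80 and the erythrocyte list at −1.26, and 36 of the 42 medians lie within −0.25 and 0.25.

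The series title names autophagy, the pathway that delivers cell contents to lysosomes. Of 43 tested genes of the autophagy machinery and its receptors, 22 had a positive interaction, the median was 0.00, and 4 had an unadjusted p under 0.05, all negative (9.30%, against 2.6% of all genes). None passed adjustment. The count was 2 without CD 3, HFD 2 or HFD_DSS 1 and on the TPM scale, and 7 with library weights. Library weights put 13.7% of all genes under that threshold, in either direction. Atg4d, a protease that processes the LC3 family, was at 3.11, 3.15 and 2.86 FPKM in CD, 3.3, 3.5 and 3.31 in CD_DSS, 3.68, 3.58 and 3.53 in HFD, and 2.96, 2.96 and 2.93 in HFD_DSS. The HFD_DSS libraries were below those of HFD without overlap, and no DSS effect was called. Its interaction was −0.33 (−0.53 to −0.14; adjusted p = 0.707), and 19.3% of its exon bases lie opposite to Kri1. Atg4c, another such protease, and Atg101, a subunit of the initiating kinase complex, had interactions of −0.47 and −0.45. The fourth gene was Bnip3l (−0.27), a mitophagy receptor. Over the 43 genes the DSS effects had medians of 0.01 on CD and −0.03 on HFD. On CD 0 were called higher and 2 lower, against 2.01% and 2.79% of all genes. On HFD 2 were called higher and 1 lower, against 1.73% and 3.1%. Atg7 fell on CD (−0.35; limma adjusted p = 0.0382) and Atg101 on HFD (−0.60; limma adjusted p = 0.0271). Map1lc3b, which encodes LC3B, rose on HFD by 0.41 (limma adjusted p = 0.0458), with an effect on CD of 0.34 (adjusted p = 0.0854) and an interaction of 0.08 (−0.25 to 0.40). Sqstm1, the receptor p62, had one of 0.08 (−0.20 to 0.37). For both genes a difference of DSS effects beyond 0.40 log2 lay outside the interval. Of 34 lysosome genes, 0 had an unadjusted p under 0.05, against 4.93% of all genes.

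By the naming rule, the 15 positive and 15 negative interactions with the lowest p ranged from 0.41 to 6.80 and from −1.09 to −0.33, with adjusted p of 0.491 to 0.708. Besides the genes above, the positive ones included Cldn2, a claudin of tight junctions, Ahr, the aryl hydrocarbon receptor, and Slc23a1, a vitamin C transporter. Cldn2 was at 31.1, 29.5 and 29.1 FPKM in CD, 26.6, 27.8 and 25.9 in CD_DSS, 31.5, 30.2 and 26.5 in HFD, and 38.4, 52.2 and 42.1 in HFD_DSS. It rose on HFD by 0.56 log2 (limma adjusted p = 0.0255) with an effect on CD of −0.16 (adjusted p = 0.439), and the HFD_DSS libraries were the highest of the 12. Ahr had DSS effects of −0.66 on CD and 0.48 on HFD, neither called, and an interaction of 1.14 (0.51 to 1.77). Mup8, a major urinary protein gene, had the largest estimate, 6.80 (2.98 to 10.61), with 1.74, 2.64 and 199 FPKM in CD, 2.35, 1.36 and 2.29 in CD_DSS, 7.75, 3.81 and 11 in HFD, and 242, 247 and 149.5 in HFD_DSS. Its value in CD 3 lay far above CD 1 and CD 2, and without CD 3 the interaction was 4.80 (adjusted p = 0.0141). Its sequence is 98.5 to 99.5% identical to those of other Mup genes, so its counts are uncertain.

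Among the negative ones, Id2, an inhibitor of helix-loop-helix transcription factors, was at 24.4, 17.3 and 17.2 FPKM in CD, 44.5, 43 and 47.1 in CD_DSS, 36.4, 40.5 and 32.4 in HFD, and 43.8, 47.1 and 37.4 in HFD_DSS. The CD libraries were the lowest of the 12, HFD lay below CD_DSS, and HFD_DSS overlapped both. DSS raised Id2 on CD by 1.17 log2 (limma adjusted p = 0.00394), its effect on HFD was 0.22 (adjusted p = 0.36), and the interaction was −0.95 (−1.38 to −0.51; adjusted p = 0.537). Traf2, an adaptor of TNF receptors, and Rhoc, a small GTPase, also rose on CD, by 0.45 (adjusted p = 0.0143) and 0.76 (adjusted p = 0.0042), with interactions of −0.49 and −0.56. Ak4, a mitochondrial adenylate kinase, was at 13.4, 14 and 12.9 FPKM in CD, 17.8, 15.6 and 17.3 in CD_DSS, 10.1, 14.8 and 14.8 in HFD, and 8.66, 8.82 and 8.29 in HFD_DSS. The HFD_DSS libraries were the lowest of the 12, close together, and the CD_DSS libraries the highest. Ak4 fell on HFD (−0.56 log2; limma adjusted p = 0.0332), and its interaction of −0.86 (−1.25 to −0.48; adjusted p = 0.516) reached −1.03 and passed without HFD 1 (adjusted p = 0.0231). Of the 15 positive genes, 11 had DSS effects of opposite sign and 4 effects of the same sign that were larger on CD. The same numbers held for the 15 negative ones. Choice by a low p of the interaction favours opposite signs. At an unadjusted p under 0.05, 170 of 252 positive and 185 of 281 negative genes had them. Over all tested genes, 73.3% had DSS effects of the same sign.

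Several strong DSS responses were called on both diets. Socs3, the feedback inhibitor of interleukin-6 signalling, rose by 2.31 log2 on CD (limma adjusted p = 0.00772) and 2.42 on HFD (adjusted p = 0.00978), with an interaction of 0.12 (−0.92 to 1.16). Glul, the pericentral glutamine synthetase, fell on CD (−3.27 log2; limma adjusted p = 0.00272) and on HFD (−2.41; adjusted p = 0.011), with an interaction of 0.86 (−0.23 to 1.95). G6pc, the last enzyme of glucose release, fell on CD (−2.42 log2; limma adjusted p = 0.0249) and on HFD (−2.23; adjusted p = 0.033), and so did Car3, carbonic anhydrase 3 (−2.21 on CD, adjusted p = 0.0452, and −2.30 on HFD, adjusted p = 0.0378). Their interaction intervals, −1.35 to 1.73 and −1.78 to 1.60, hold differences of more than 2-fold in either direction, so a diet difference of that size was not detectable here. For Hamp, the iron hormone hepcidin, the interval was −3.32 to 3.41.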

How the data were processed

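Liver RNA of 12 samples was sequenced, after Qiagen RNeasy extraction and SMARTer library preparation, per the labels' protocols. The authors deposited FPKM per gene, 1 column per library, on mm10, per the submitters' processing notes. The sources used here do not give the aligner or counter. The table's 4 columns without name or value were not used. Gene symbols, exons and positions came from GENCODE M21, which matched 54495 of 54532 IDs. Across libraries, the median ratio of the deposited FPKM was already equal, within 6.61e-10 on the log2 scale, so they carry such a scaling. Multiplied by exon length, 97.0 to 97.3% of values up to 500 fragments lay within 0.02 of a whole fragment, which gave the depths.

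Genes that reached 1 FPKM in 3 or more libraries were fitted as log2(FPKM + 1), pseudocount 1, with limma 3.58.1 in R 4.3.3. The model had 4 group means, empirical Bayes with a variance trend and two-sided p, adjusted by Benjamini-Hochberg over 10806 genes (threshold 0.05). Differences are on that scale, which understates changes of low genes. Intervals are 95% from limma's moderated errors. The fit was tested on simulated data. Near copies are transcripts at least 95% identical over at least 50% of their length (BLAST 2.17.0).

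The members, the 44 gene lists and the rules were chosen with earlier results of these data known. Named by rule were the 15 lowest p in each direction among genes averaging 1 FPKM or more, clone names left out, up to 3 members of each list by p, and a fixed set; of that set, Pnpla3 and Cidea were under the filter. Named outside it, after their values were seen, were BC049987, Gm3571, Hsp90b1, Pdia4, Bnip3l, the marker Alb and genes named as neighbours, overlaps or copies. Alternatives were the pseudocount, the filter, TPM, median-of-ratios and quantile scaling, library weights, a robust prior, a minimum log2 of 1, the replicate number as a block and leaving out each library. Added after seeing the data were voom on recovered fragments and a fit without HFD 1, CD_DSS 1 and HFD_DSS 2. Some list members are not reported here by name.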

Additional observations from a re-analysis of the deposited data

Results flagged for a closer look

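The interaction of BC049987 was 1.66 log2, the single test of a difference between both DSS effects that passed over all genes. DSS lowered this non-coding RNA on CD (−1.55 log2), and its effect on HFD was 0.11. Of 22 alternatives with a value, beside the median-of-ratios scaling that could change nothing, 12 kept the call, with the estimate between 1.56 and 2.11 and adjusted p between 0.00770 and 0.155. Of 12 fits that left out 1 library, 4 kept it.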

How the results depend on the processing

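The count of called interactions, 1, became 0 with no filter on low values and without the 3 libraries that stood apart, which were chosen after seeing the data, and 0 to 2 when 1 library was left out. The same holds for genes called on a single diet by interaction (0 and 0; 0 to 2). The 533 interactions at an unadjusted p under 0.05 became 1094 with no filter, 280 at a mean of at least 5 FPKM, 1477 with library weights, 1218 without the 3 libraries, and 397 to 765 leaving out 1 library. As shares of the genes tested, the counts were 13.7% with library weights and 11.5% without the 3 libraries, against 4.93% in the main fit. For DSS on CD, 519 became 157 with no filter, 2592 with weights, 1941 without the 3 libraries, 119 at an absolute log2 of at least 1 and 63 to 1285 leaving out 1. For DSS on HFD, 522 became 130, 2820, 2028, 118 and 9 to 910 under the same settings, and 333 on the TPM scale. Genes called on 1 diet (665) became 211 with no filter, 2566 with weights, 1731 without the 3 libraries and 290 to 1211 leaving out 1. Genes called on both diets (188) became 38, 1411, 1112 and 8 to 492, and 121 as TPM. Those with an interval within the band (149) became 30, 1255, 945 and 2 to 390, and 88 as TPM. As TPM, with 13268 genes tested, the share of higher calls went from 41.8% to 61.2% on CD. On HFD it went from 35.8% to 67.6%. No interaction of the 32 genes recomputed changed sign, while the median changed sign in at least 1 setting for 26 of 42 lists, none of them beyond 0.31 in absolute size. Of the named interactions and settings, 715 kept their side of the threshold, 10 lost it (all BC049987) and 2 gained it. With the replicate number as a block, called interactions stayed at 1 (adjusted p = 0.00770), DSS calls were 290 on CD and 278 on HFD, 376 on 1 diet and 96 on both, 74 within the band. The labels do not say that the numbers pair samples across groups. Correlations of same-numbered deviations were −0.36 to 0.26, 5 of 18 were above 0.1, and 2 of 12 libraries correlated best with their own number. With 3 libraries per group these values cannot settle whether samples were paired.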

Other observations

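Urea cycle and amino acid catabolism genes had median DSS effects of −0.46 on CD and −0.47 on HFD. Of 32 tested members, 14 were called lower on CD and 8 on HFD, against 2.79% and 3.1% of all genes, and the median interaction was 0.07. Bhmt, which returns a methyl group to homocysteine, was at 539.9, 776 and 611 FPKM in CD, 175, 307 and 218 in CD_DSS, 504, 691 and 733 in HFD, and 502, 409.9 and 474 in HFD_DSS. The CD_DSS libraries were the lowest of the 12. It fell on CD (−1.48 log2; limma adjusted p = 0.00818), its effect on HFD was −0.46 (adjusted p = 0.226), and the interaction was 1.02 (0.34 to 1.69; adjusted p = 0.834). Gpt2, mitochondrial alanine transaminase, had an interaction of 0.56 and Hal, histidine ammonia lyase, one of −0.81.

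Of 22 male-biased liver genes, 17 had a positive interaction with a median of 0.37, and 9 were called lower with DSS on CD and 5 on HFD, against 2.79% and 3.1% of all genes. That median was 0.08 without HFD_DSS 2. Igf1, the growth factor of the growth hormone axis, had DSS effects of −0.32 on CD and 0.23 on HFD, neither called, and an interaction of 0.55 (0.22 to 0.88; adjusted p = 0.708). Of 32 interferon-stimulated genes, 6 were positive, with a median of −0.20, and of 33 nuclear-encoded genes of oxidative phosphorylation 3 were positive, with a median of −0.12. Leaving out 1 library gave 3 (without HFD 3 or HFD_DSS 1) to 13 (without HFD 1) positive interferon-stimulated genes and 0 (without CD_DSS 3 or HFD_DSS 3) to 10 (without CD 1) positive genes of oxidative phosphorylation. All 33 of the latter had a DSS effect below 0 on both diets, with medians of −0.29 on CD and −0.40 on HFD. Of these, 10 were called lower on HFD and 0 on CD, against 3.1% and 2.79% of all genes. For the interaction, 0 of the 33 had an unadjusted p under 0.05, against 4.93% of all genes. These calls were therefore not a called difference between diets. Gadd45g, a stress-induced growth regulator, was at 3.58, 6.59 and 6.16 FPKM in CD, 5.86, 15.5 and 10.5 in CD_DSS, 87.9, 44.4 and 79.1 in HFD, and 19.5, 7.94 and 57.8 in HFD_DSS. The HFD libraries, at 44.4 to 87.9, lay above both CD groups, and HFD_DSS spread widely. Its interaction was −2.43 (−4.20 to −0.67; adjusted p = 0.958).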
